A study of Arabidopsis thaliana with 21 samples.

Results

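A set of 10 genes of the heat-shock response was followed through lists of ChIP-seq peaks for the histone variant H2A.Z and for acetylated histone H4 (H4Ac) in Arabidopsis seedlings. The genes were chosen by name, as loci known for H2A.Z in the response to temperature. They are the heat shock transcription factors *HSFA1A* and *HSFA2*, the small heat shock protein genes *HSP18.2*, *HSP17.6A*, *HSP21* and *HSP22*, the larger chaperone genes *HSP70*, *HSP90.1* and *HSP101*, and the ascorbate peroxidase gene *APX2*. They are 10 of 27444 protein-coding genes on the 5 nuclear chromosomes, and all 10 were found in the annotation.

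The libraries came from seedlings 6 days old, of ecotype Col-0, with the roots removed. Growth chambers were kept at 20°C with 16 hours of light and 8 hours of dark, and the labels name no heat treatment, so the peaks describe these genes in seedlings that were not heat shocked. One group was wild type (WT) with the H2A.Z antibody, another was *mbd9-1* with the H2A.Z antibody, and the last was WT with antibody against H4Ac, with 3 libraries in each. *mbd9-1* is a T-DNA insertion allele of *MBD9*, in the same Col-0 background, and it is the single *mbd9* allele among these libraries. The *arp6-1* libraries, the *mbd9-1* H4Ac libraries and the inputs were not analysed here. Chromatin was taken from whole shoots, so a peak present in fewer cells and a peak with less H2A.Z in each cell cannot be told apart.

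H2A.Z replaces the canonical histone H2A in some nucleosomes and is placed there by the SWR1 chromatin remodeling complex. In Arabidopsis it sits mostly at the first nucleosomes of genes, and over the body of genes that are poorly expressed and respond to the environment. MBD9 belongs to the family of methyl-CpG-binding domain proteins and associates with SWR1. In the heat-shock response, factors of the HSFA1 group become active when proteins unfold and bind heat shock elements, short repeats of GAA in alternating orientation, in front of chaperone genes. HSFA2 is among their targets and prolongs the response. Acetylation of histone H4 marks accessible chromatin around the start of active genes.

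A gene counted as called in a library if peaks of that library overlapped its window by at least 1 bp. The window was the annotated gene plus 1000 bp upstream, and the share of the window under peaks gave the extent of the signal. The lists hold positions only, with no height, so a wider peak does not mean a stronger one, and they do not give the depth of each library. The WT H2A.Z lists held 6263 to 9260 peaks, the *mbd9-1* lists 5215 to 5733 and the H4Ac lists 10439 to 12030. One library stood apart. In *mbd9-1* replicate 3, 64.4% of the peaks had the commonest width of that list (381 bp), and its peaks shared a Jaccard index of 0.169 and 0.180 with replicates 1 and 2, which shared 0.358 with each other. Counts over the *mbd9-1* libraries are therefore also given without it or library by library.

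All 10 genes had an H2A.Z peak in at least 2 WT libraries, where 31.9% of all protein-coding genes did, and the background for at least 1 WT library was 46.6%. By library, 10, 7 and 10 of the genes were called in WT replicates 1, 2 and 3, a mean of 9 ± 1.73 (SD, n = 3). The corresponding shares of all genes were 37.7%, 25.97% and 32.5%. In *mbd9-1* the numbers were 4, 6 and 3 genes, a mean of 4.33 ± 1.53 (SD, n = 3), against 20.6%, 23.7% and 15.9% of all genes. The WT and *mbd9-1* libraries did not overlap in this number, and without *mbd9-1* replicate 3 the mutant mean was 5. No test was made on these counts, because the genes were chosen with results known.

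The number of peaks moved with genotype. When every H2A.Z list was shortened to its 5215 widest peaks, WT libraries called 7, 6 and 8 of the genes and *mbd9-1* libraries called 4, 6 and 3. WT replicate 2 and *mbd9-1* replicate 2 were then level. At that length at least 22.1% of all genes were called in each WT library and at most 21.8% in each *mbd9-1* library. The mean difference between genotypes went from -4.67 to -2.67 genes.

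**Figure D1:**
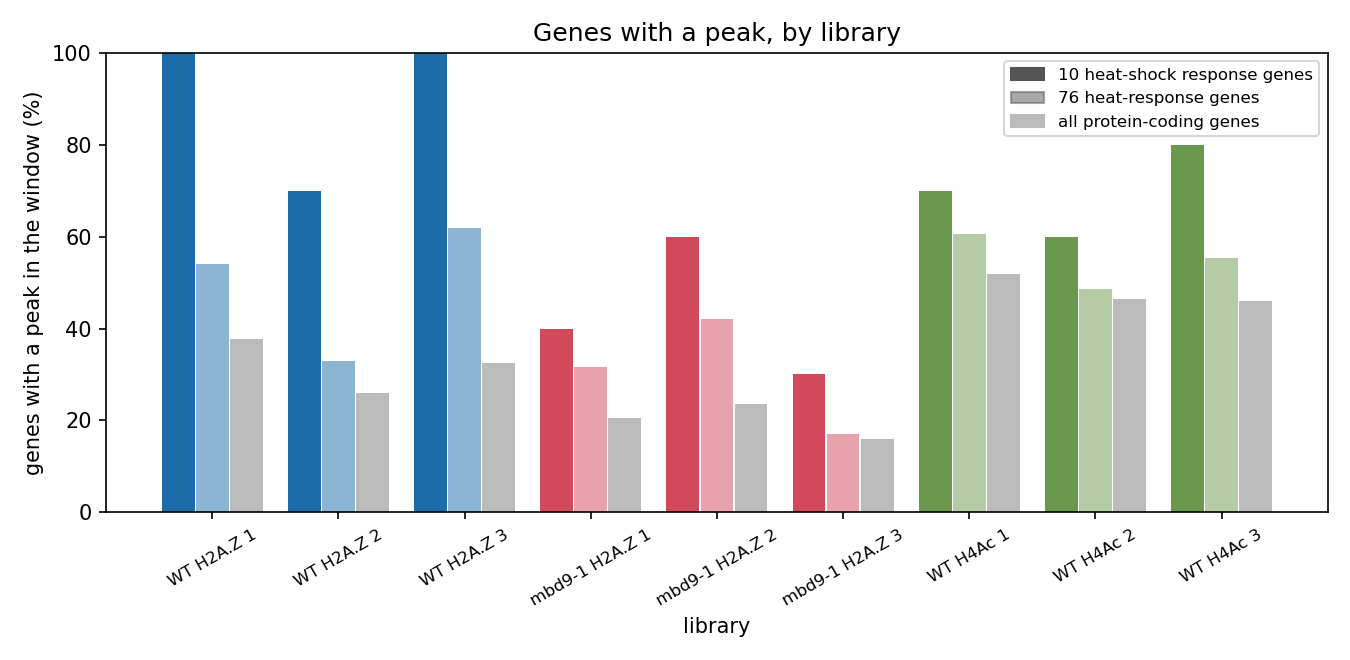
Share of genes with a peak in the window (vertical axis, %) in each of 9 libraries (horizontal axis). Dark bars are the 10 heat-shock response genes, pale bars the 76 genes of the wider heat-response list and grey bars all 27444 protein-coding genes. The dark bars stand at 70% or above in WT H2A.Z libraries and at 60% or below in *mbd9-1*.

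In every WT H2A.Z library 7 of the 10 genes were called, where the background was 17.8% of all genes. These were *HSFA1A*, *HSP17.6A*, *HSP21*, *HSP22*, *HSP70*, *HSP90.1* and *HSP101*. The other 3, *HSFA2*, *HSP18.2* and *APX2*, had no peak in WT replicate 2, the WT list with fewest peaks. In *mbd9-1*, 6 genes had a peak in at least 1 library (background 35.1%) and 3 in every library (7.07%). *HSFA1A*, *HSP22* and *APX2* were those 3, the peaks counted for *HSFA1A* being centered in a neighboring gene. Without replicate 3, 4 genes were called in both remaining libraries (13.9%), *HSP21* being the addition.

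*HSP17.6A* and *HSP90.1* were called throughout WT and in none of the *mbd9-1* libraries, 2 of 10 genes against a background of 5.31%. Without *mbd9-1* replicate 3 the count was also 2, against 5.96%. It was 4 without WT replicate 2 (8.91% of all genes), which added *HSFA2* and *HSP18.2*, and 4 without *mbd9-1* replicate 2 (7.55%), which added *HSP70* and *HSP101*. With H2A.Z lists of equal length it was 1, *HSP17.6A* (3.28%). A gene counted here must have a peak in every WT library, as 7 of the 10 genes and 4885 of all genes did. With all libraries and full lists, 2 of those 7 and 1458 of those 4885 had no *mbd9-1* peak. More WT than *mbd9-1* libraries had a peak at 7 genes, where 32.5% of all genes showed that order. The share of the window under peaks was lower in every *mbd9-1* than in every WT library at 6 genes (9.95% of all genes), namely *HSFA1A* (through peaks in a neighboring gene), *HSP17.6A*, *HSP22*, *HSP70*, *HSP90.1* and *HSP101*. Without replicate 3 it was again 6 genes, against 10.2%. This order too needs a peak in every WT library. With all libraries it was found at 6 of the 7 genes called in every WT library, and at 2731 of 4885 over all genes. None of the 10 was higher in every *mbd9-1* library, an order found at 1.21% of all genes.

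Across the 10 genes the mean share of the window under H2A.Z peaks was 34.0%, 24.9% and 30.01% in WT and 10.99%, 15.5% and 5.75% in *mbd9-1*. The groups did not overlap. Over all genes the means were 9.83%, 6.01% and 7.83% in WT and 4.75%, 5.96% and 2.53% in *mbd9-1*, so *mbd9-1* was also lower across the genome. The median difference between genotype means was -16.5 percentage points over the 10 genes and 0 over all protein-coding genes, of which 12210 had no H2A.Z peak in any of the 6 libraries. For a single gene, an exact two-sided permutation test of 3 against 3 libraries cannot give a p below 0.1. Of all genes 3062 reached that value and 0 had an unadjusted p below 0.05, and the smallest Benjamini-Hochberg adjusted p was 0.896, so no gene passed the threshold of 0.05. The authors describe the libraries as biological triplicates, and the labels do not say whether these were separate batches of plants. Each p-value places the difference between genotypes among the 20 ways to split the 6 libraries into 3 and 3.

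**Figure D2:**
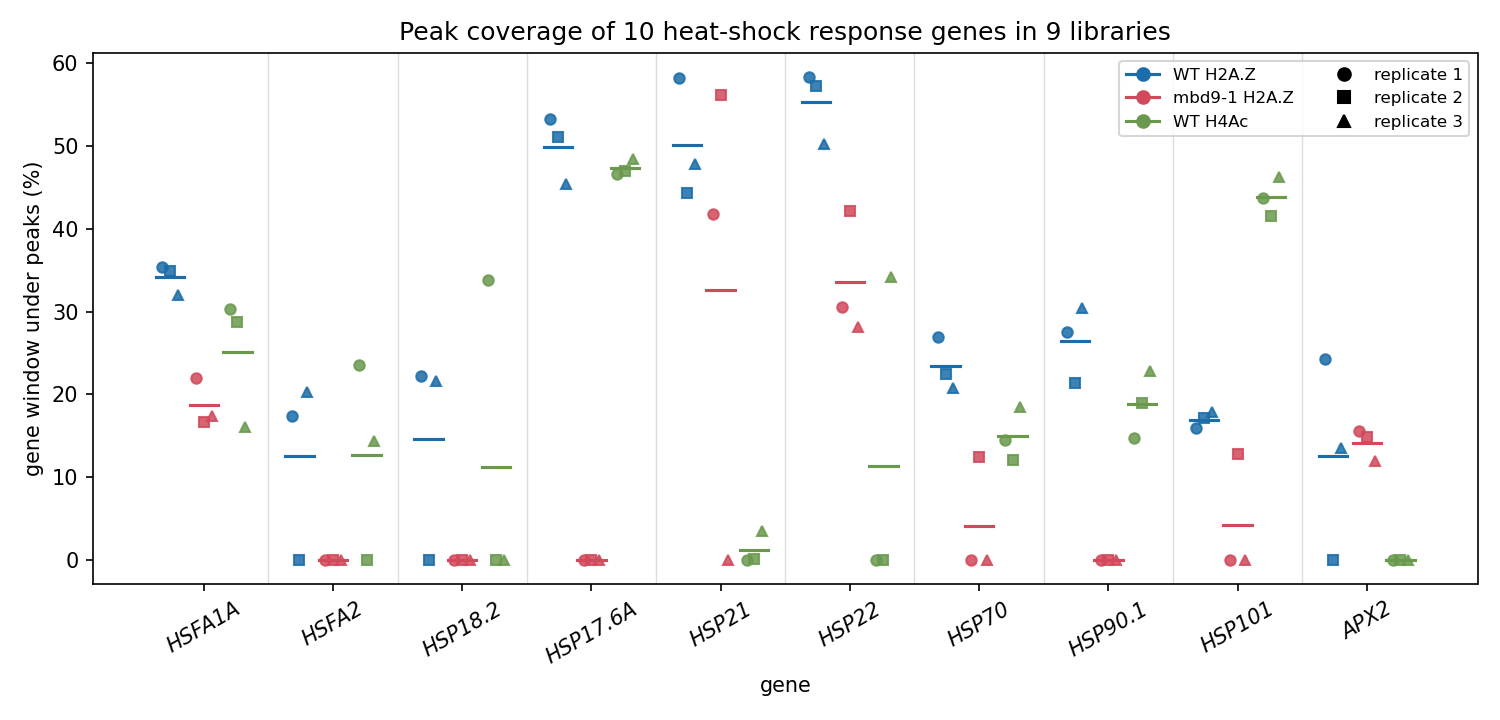
Share of the gene window under peaks (vertical axis, %) at the 10 genes (horizontal axis). Points are libraries, shaped by replicate, and short lines are means of 3 libraries for WT H2A.Z (blue), *mbd9-1* H2A.Z (red) and WT H4Ac (green). *HSP17.6A* stands at 45.4% to 53.2% in WT H2A.Z and at 0 in *mbd9-1*, while the groups overlap at *HSP21* and *APX2*.

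Before the genes are taken in turn, the sequence in front of them is shown, since heat shock elements mark where their activators bind. The motif searched was 2 adjoining units, GAANNTTC or TTCNNGAA, each of which reads the same on both strands, and 3 units in a row, where the 2 forms overlap by the shared GAA or TTC. In the 250 bp before the annotated start, 4 of the 10 genes had a 2-unit match and 16.1% of all genes did. A 3-unit match was found at 1 of the 10 and at 0.386% of all genes. Annotated starts of several of these genes lie far in front of the coding region, by 507 bp at *HSP101* and 309 bp at *HSP18.2*. A window of 500 bp before the first coding base, chosen after the first result was seen, was therefore searched too. There, 9 of the 10 genes had a 2-unit match against 33.9% of all genes, and 5 had a 3-unit match against 1.20%. *HSFA1A* had none. TATAAA on the strand of the gene was present at 6 of the 10 in that window and at 46.9% of all genes. A match is a description of letters and not a bound site.

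The 5 matches of 3 units are printed with 8 bases on either side, from the TAIR10.1 assembly in RefSeq, 5′ to 3′ on the strand of the gene, the units in capitals. They are shown because the letters can be set beside the position of H2A.Z at each gene.
HSFA2: ttagtaacGAAGTTTCTGGAAcattgtct
HSP18.2: caacaaacGAAACTTCCTGAAatgccaag
HSP22: aaagatatTTCAAGAAACTTCttcattct
HSP70: ttactcgtGAACGTTCTCGAAagctcttt
HSP90.1: aacgaaaaGAACTTTCTGGAAttcgtttg

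The *HSP22* match (chr4:6370387-6370399, plus strand) was fully under a peak in all 3 WT H2A.Z libraries. At *HSP18.2* (chr5:24062396-24062408, plus strand) this was so in 2 WT libraries, and at *HSP70* (chr3:3993854-3993866, minus strand) in 1. The matches of *HSFA2* (chr2:11135536-11135548, plus strand) and *HSP90.1* (chr5:21352262-21352274, plus strand) were under no H2A.Z peak. None of the 5 was covered in an *mbd9-1* or an H4Ac library. Over all 23 matches of 2 units at the 10 genes, 12 (52.2%) were under a peak of at least 1 WT H2A.Z library, and 53.0% of all bases in the same 500 bp windows were. Every WT library covered 6 matches (26.1%) and 36.9% of the bases, and at least 1 *mbd9-1* library covered 3 matches and 15.3% of the bases. The bases counted include the window of *HSFA1A*, which had no match and where the H2A.Z peaks were centered in a neighboring gene. The shares of matches and of bases are thus not over the same genes, and a difference between them was not tested. Just 1 (4.35%), at *HSP101*, was under a peak of every H4Ac library, as were 14.5% of the bases. Among 11927 matches before all protein-coding genes, 13.3% were under a peak of at least 1 WT H2A.Z library and 3.75% of every one. At least 1 *mbd9-1* library covered 7.93% of them and every H4Ac library 20.2%.

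*HSFA1A* (AT4G17750, chr4:9869818-9871646, minus strand) encodes a transcription factor that starts the heat-shock response. In WT, H2A.Z peaks covered 1002, 988 and 907 of the 2829 bp of its window. In *mbd9-1* they covered 622, 471 and 492 bp. Every library had a peak and the genotypes did not overlap, with a difference in means of -15.5 percentage points (exact two-sided permutation p = 0.1, adjusted p = 0.896). The signal lay upstream and not over the gene. The WT peaks were centered at -867, -729 and -720 bp from the start, inside the divergent neighbor AT4G17760, whose annotated start is inside the same window. In *mbd9-1* the centers were at -447, -378 and -492 bp, in the same neighbor. H4Ac peaks of 859, 813 and 456 bp were centered instead within *HSFA1A* itself, 334, 308 and 401 bp after the start. By position, then, the H2A.Z calls of this window lay in AT4G17760. Over the body of *HSFA1A* itself WT peaks covered 2, 0 and 0 bp and *mbd9-1* peaks none.

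*HSFA2* (AT2G26150, chr2:11135624-11137792, plus strand) encodes the factor that heat induces and that sustains the response. H2A.Z peaks covered 551, 0 and 644 bp of its 3169 bp window in WT, and 0 bp in all 3 *mbd9-1* libraries. WT replicate 2 was at 0 like the mutant, so the groups overlapped (exact two-sided permutation p = 0.4, adjusted p = 1). Both WT peaks were inside the gene, centered 641 and 655 bp after the start, and neither reached the intergenic sequence in front of it. That sequence carries 3 matches of 2 units within 158 bp, and the first pair of them overlap. It is printed because no H2A.Z or H4Ac peak of the 9 libraries covered any of it (chr2:11135466-11135623, plus strand, matches in capitals).
HSFA2 upstream: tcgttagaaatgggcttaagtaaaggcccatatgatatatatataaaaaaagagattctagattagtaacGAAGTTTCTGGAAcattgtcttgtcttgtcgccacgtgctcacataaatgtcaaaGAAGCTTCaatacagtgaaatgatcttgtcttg

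The H4Ac peaks counted for *HSFA2*, 745 bp in replicate 1 and 456 bp in replicate 3, were centered in the divergent neighbor AT2G26140, which encodes the protease FTSH4. No H4Ac peak lay over *HSFA2*.

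*HSP17.6A* (AT5G12030, chr5:3883957-3884838, minus strand) encodes a cytosolic small heat shock protein of class II, which keeps unfolding proteins from aggregating. H2A.Z peaks covered 1002, 962 and 855 bp of its 1882 bp window in WT and none of it in *mbd9-1*. That was the widest gap between the genotypes among the 10 genes, -49.9 percentage points (exact two-sided permutation p = 0.1, adjusted p = 0.896). The WT share of 49.9% ± 4.04 (SD, n = 3) was above that of 98.2% of all genes. The peaks began at -227, -275 and -233 bp from the start and ended 774, 686 and 621 bp after it. They covered in each WT library the whole 110 bp between this gene and its divergent neighbor AT5G12040, printed here with its single match in capitals (chr5:3884839-3884948, minus strand).
HSP17.6A upstream: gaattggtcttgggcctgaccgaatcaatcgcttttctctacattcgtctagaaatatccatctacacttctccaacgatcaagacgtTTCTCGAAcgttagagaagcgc

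In H4Ac libraries 877, 884 and 911 bp of the same window were covered, but those peaks were centered in AT5G12040. Only 104, 159 and 144 bp were under both antibodies in replicates 1, 2 and 3. At *HSP17.6A* the window thus held H2A.Z over the gene and H4Ac over its neighbor.

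*HSP21* (AT4G27670, chr4:13818825-13819971, minus strand) encodes the small heat shock protein of the chloroplast. In WT 1251, 952 and 1026 of 2147 bp were covered, and in *mbd9-1* 897, 1205 and 0 bp. *mbd9-1* replicate 1 was below the lowest WT library, replicate 2 was above 2 of the 3 WT libraries, and replicate 3, the library that stood apart, had no peak. The groups overlapped (difference -17.5 percentage points, exact two-sided permutation p = 0.4, adjusted p = 1). Without *mbd9-1* replicate 3 the difference was -1.18 percentage points. The peaks of WT and of those 2 *mbd9-1* libraries spanned the start, beginning at -273 to -229 bp from it. They covered 235 to 250 bp of the 250 bp upstream in WT and 250 and 229 bp in *mbd9-1*. This sequence is printed as one where H2A.Z covered a match in both genotypes (chr4:13819972-13820221, minus strand).
HSP21 upstream: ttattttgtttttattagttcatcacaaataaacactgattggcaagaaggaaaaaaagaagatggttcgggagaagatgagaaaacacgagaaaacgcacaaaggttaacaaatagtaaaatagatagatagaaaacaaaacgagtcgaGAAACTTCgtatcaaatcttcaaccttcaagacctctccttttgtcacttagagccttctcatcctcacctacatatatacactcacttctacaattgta

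H4Ac at *HSP21* came to 0, 3 and 75 bp, the edges of peaks centered in another gene, AT4G27680. Of these, 2 count as calls by the 1 bp rule, and none lay over the gene.

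*HSP22* (AT4G10250, chr4:6370338-6371372, plus strand) encodes a small heat shock protein of the endomembrane system. It had the largest WT share of the 10 genes, with 1187, 1165 and 1023 of 2035 bp covered, or 55.3% ± 4.37 (SD, n = 3), above 98.8% of all genes. In *mbd9-1* 621, 858 and 573 bp were covered. All 6 libraries had a peak and the genotypes did not overlap (difference -21.7 percentage points, exact two-sided permutation p = 0.1, adjusted p = 0.896). Peak position differed at the 5′ end. WT peaks began at -152, -194 and -31 bp from the start, whereas *mbd9-1* peaks began 302, 177 and 298 bp after it. The 3-unit heat shock element begins 49 bp after the annotated start, so it was under each WT peak and outside each *mbd9-1* peak. H4Ac was called in replicate 3 alone, with 695 bp.

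*HSP18.2* (AT5G59720, chr5:24062323-24063300, plus strand) encodes a cytosolic small heat shock protein of class I. WT peaks covered 439, 0 and 428 of 1978 bp, and no *mbd9-1* library had a peak. As at *HSFA2*, WT replicate 2 was level with the mutant (exact two-sided permutation p = 0.4, adjusted p = 1). Both WT peaks had exactly the commonest width of their list, and with lists of equal length or without the narrowest peaks no library of either genotype had a peak here. They began 60 and 58 bp after the annotated start and lay over 4 matches of 2 units that fall between that start and the coding region. H4Ac was called in replicate 1 only, with 668 bp.

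*HSP70* (AT3G12580, chr3:3991117-3993886, minus strand) encodes a cytosolic chaperone that refolds proteins with ATP and is strongly induced by heat. WT H2A.Z peaks covered 1017, 846 and 784 of 3770 bp, centered 492, 472 and 528 bp after the start. In *mbd9-1* the values were 0, 471 and 0 bp. The single mutant peak, of the commonest width in its list, was centered further into the gene, 931 bp after the start. Every *mbd9-1* value was below every WT value (difference -19.2 percentage points, exact two-sided permutation p = 0.1, adjusted p = 0.896). H4Ac peaks of 548, 454 and 698 bp were centered 484, 475 and 545 bp after the start and lay wholly under the H2A.Z peak of the same replicate.

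*HSP90.1* (AT5G52640, chr5:21352557-21355147, plus strand) encodes the heat-induced cytosolic HSP90, which matures signaling proteins and holds back HSFs. Its annotation begins at the first coding base, so distances here are from the coding start. WT peaks covered 989, 770 and 1094 of 3591 bp and no *mbd9-1* library had a peak (difference -26.5 percentage points, exact two-sided permutation p = 0.1, adjusted p = 0.896). Each WT library had a pair of peaks. The first was centered at -834, -922 and -769 bp, in *MEF1* (AT5G52630), and the second 218, 343 and 291 bp into the gene. Of the 6 peaks, 3 had the commonest width of their list, and the separation of the genotypes rested on such narrow peaks. With lists of equal length the difference was -6.18 percentage points and without the narrowest peaks of each list -15.4, and WT and *mbd9-1* then overlapped. The 3 heat shock matches began at -352, -295 and -290 bp, between the pair and under neither. H4Ac peaks of 530, 683 and 819 bp were centered 320, 246 and 200 bp after the coding start, and 437, 461 and 651 bp were under both antibodies.

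*HSP101* (AT1G74310, chr1:27936508-27940369, minus strand) encodes the disaggregase that plants need to survive severe heat. WT H2A.Z peaks covered 775, 833 and 867 of 4862 bp and spanned the start, with a share of 17.0% ± 0.957 (SD, n = 3), the smallest spread of the 10 genes in WT. *mbd9-1* had 0, 622 and 0 bp. The mutant peak was centered 826 bp after the start against 289, 385 and 410 bp in WT, and all mutant values were below all WT values (difference -12.7 percentage points, exact two-sided permutation p = 0.1, adjusted p = 0.896). H4Ac peaks were the widest here, with 2126, 2022 and 2252 bp. They spanned the start and reached into the divergent neighbor AT1G74320, and in every replicate the whole H2A.Z peak lay inside the H4Ac peak.

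*APX2* (AT3G09640, chr3:2956156-2958330, plus strand) encodes a cytosolic ascorbate peroxidase that removes hydrogen peroxide and is induced by heat and strong light. It was the exception among the 10 genes. WT peaks covered 771, 0 and 428 of 3175 bp and *mbd9-1* peaks 495, 471 and 381 bp. Every *mbd9-1* library had a peak while WT replicate 2 had none, and the groups overlapped (difference 1.55 percentage points, exact two-sided permutation p = 0.8, adjusted p = 1). The difference was -4.74 percentage points without WT replicate 2. All 3 *mbd9-1* peaks had exactly the commonest width of their lists, as did the peak of WT replicate 3. The *mbd9-1* peaks were centered 300, 317 and 340 bp after the start, closer to it than the WT peaks at 760 and 455 bp. No H4Ac peak touched the window. Upstream of *APX2* are 2 matches and no peak of any library (chr3:2955906-2956155, plus strand), as at *HSFA2*.
APX2 upstream: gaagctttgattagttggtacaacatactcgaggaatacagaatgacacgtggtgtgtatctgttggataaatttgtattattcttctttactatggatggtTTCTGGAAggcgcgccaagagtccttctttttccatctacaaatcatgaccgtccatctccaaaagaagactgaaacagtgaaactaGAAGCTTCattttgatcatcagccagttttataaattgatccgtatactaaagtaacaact

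**Figure D3:**
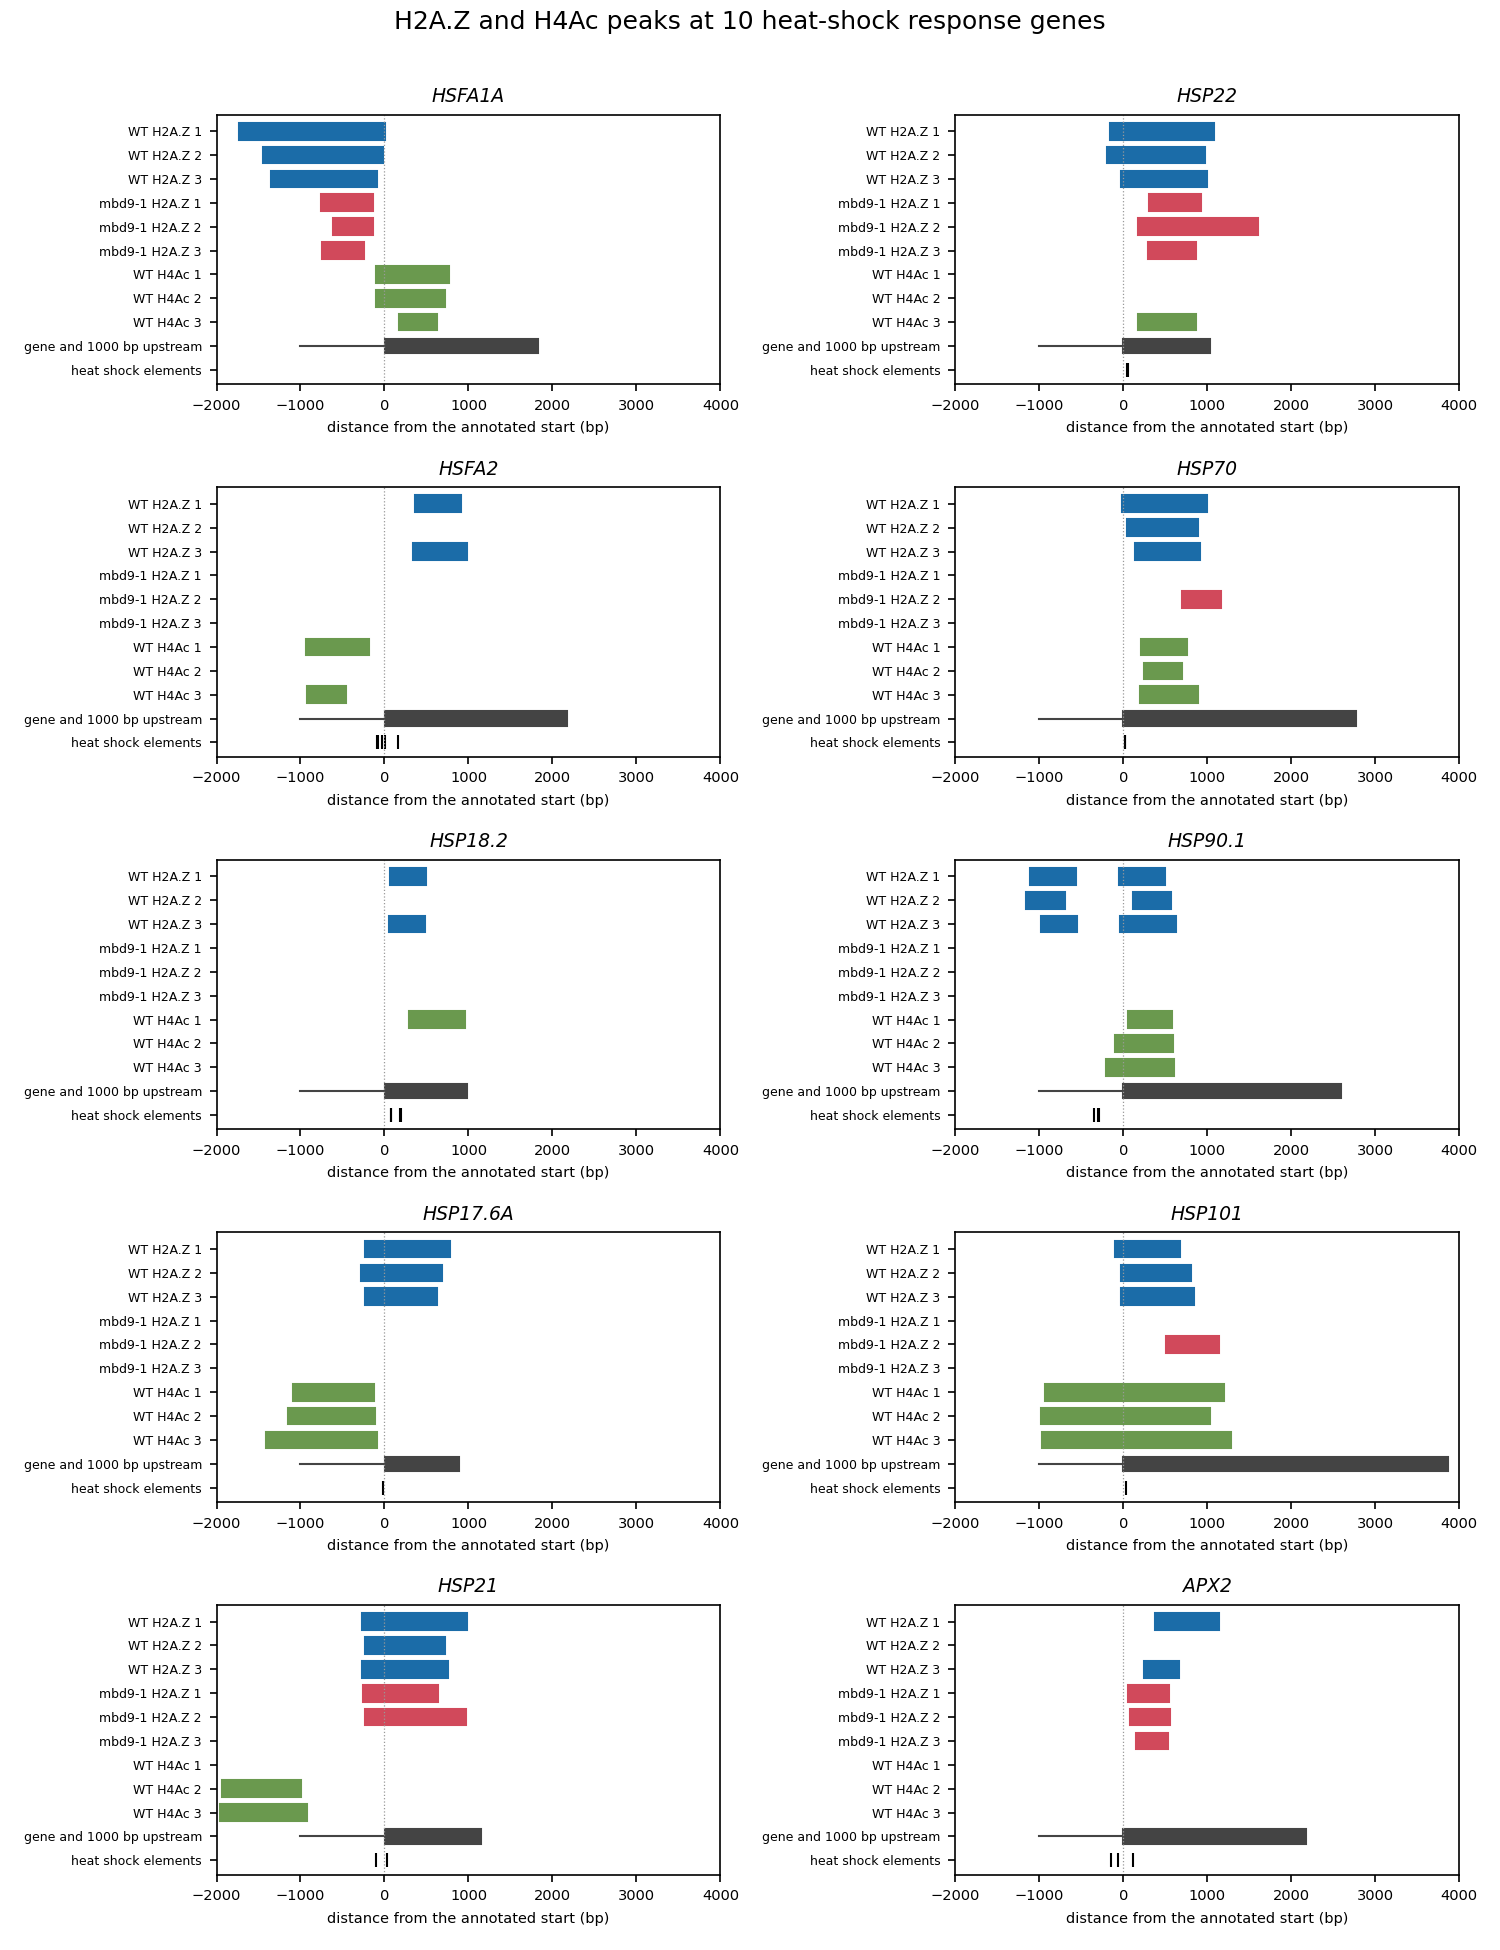
Peaks at each gene (bars, 1 row per library) by distance from the annotated start in bp (horizontal axis), for WT H2A.Z (blue), *mbd9-1* H2A.Z (red) and WT H4Ac (green). The dark box is the gene with 1000 bp upstream as a line, and ticks mark heat shock elements found within 500 bp before the first coding base. WT H2A.Z peaks begin before the start at *HSP17.6A*, *HSP21* and *HSP22* and after it at *HSFA2*, *HSP18.2* and *APX2*.

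H4Ac and H2A.Z were immunoprecipitated from the same WT chromatin, so the lists of a replicate number can be laid over each other. H4Ac was called at 7, 6 and 8 of the 10 genes (51.8%, 46.5% and 46.0% of all genes). At least 1 H4Ac library had a peak at 9 genes (background 56.5%) and every library at 5 (38.9%). Those 5 were *HSFA1A*, *HSP17.6A*, *HSP70*, *HSP90.1* and *HSP101*. The same 5 were called in every WT H2A.Z library, a combination found at 5.95% of all genes. A call in the window need not lie over the gene itself. The H4Ac peaks counted for *HSP17.6A*, *HSFA2* and *HSP21* were centered in neighboring genes, as were the H2A.Z peaks counted for *HSFA1A*. Only at *HSP70*, *HSP90.1* and *HSP101* did the 2 marks share most of the H4Ac or H2A.Z bases in every replicate. Within the 10 windows 24.2%, 30.6% and 37.9% of H2A.Z bases were also under an H4Ac peak in replicates 1, 2 and 3, and across the genome 22.0%, 18.1% and 17.7% of H2A.Z bases were. By mean share of the window, *HSP17.6A* was high for both marks, at 49.9% for H2A.Z and 47.3% for H4Ac, though over different genes. *HSP22* and *HSP21*, highest for H2A.Z, had H4Ac shares of 11.4% and 1.21%, while *HSP101*, at 17.0% for H2A.Z, had 43.9%.

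In WT H2A.Z, *HSP22*, *HSP21* and *HSP17.6A* formed the top of the order, at 55.3%, 50.1% and 49.9%, and their libraries overlapped one another. *HSFA1A* followed at 34.1% ± 1.81, below every library of those 3, and *HSP90.1* at 26.5% ± 4.60 and *HSP70* at 23.4% ± 3.20 overlapped each other. *HSP101* at 17.0% had a narrow range, and *HSP18.2*, *HSFA2* and *APX2* at 14.6%, 12.6% and 12.6% each ranged from 0 to above it. Shares depend on gene length, and the small heat shock protein genes have the shortest windows. In covered bp *HSP22* and *HSP21* were again highest, with means of 1125 and 1076 bp, but *HSFA1A* at 966 bp and *HSP90.1* at 951 bp came before *HSP17.6A* at 940 bp. The *HSFA1A* peaks were centered in AT4G17760, with 2, 0 and 0 bp over the gene body. At *HSP90.1* 496, 309 and 469 bp were upstream, mostly in *MEF1*, while *HSP17.6A* had 775, 687 and 622 bp over its body. In each of 4 equal classes of window length, 16.0% to 18.9% of all genes were called in every WT library. Over the 9 libraries together, *HSP17.6A* and *HSP90.1* had the same set of calls as each other and 637 protein-coding genes had that set. *HSP70* and *HSP101* also matched each other, in a set held by 201 genes. The set of *HSP21* was held by 14 genes and that of *HSFA1A* by 275.

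A wider list of 76 heat-response genes, the 10 included, was read in the same way. It holds 21 HSFs, 19 small heat shock proteins, 14 HSP70s, 7 HSP90s, 3 HSP100s, 3 ascorbate peroxidases and 9 other genes of the response. In WT H2A.Z libraries 41, 25 and 47 of the 76 were called, in *mbd9-1* 24, 32 and 13, and in H4Ac 46, 37 and 42. As shares these were 53.9%, 32.9% and 61.8% in WT, 31.6%, 42.1% and 17.1% in *mbd9-1* and 60.5%, 48.7% and 55.3% in H4Ac, the last near the 51.8%, 46.5% and 46.0% of all genes. The ranges of WT and *mbd9-1* overlapped for the list, whereas they did not for the 10 genes or for all genes. Of the 76, 24 were called in every WT library (17.8% of all genes) and 9 in every *mbd9-1* library (7.07%). Without *mbd9-1* replicate 3 the number in every remaining *mbd9-1* library was 19 (13.9%). At 14 the *mbd9-1* shares were all below the WT shares (9.95%), also 14 without replicate 3 (10.2%), and at 0 all above (1.21%). The lower order needs a peak in every WT library. With all libraries 14 of the 24 such genes of the list showed it, and 2731 of 4885 over all genes.

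Small heat shock protein genes were called at 15, 7 and 16 of 19 in WT, against 9, 10 and 5 in *mbd9-1*. In the HSP90 family 2, 1 and 3 of 7 genes were called in WT H2A.Z, 6, 5 and 6 in H4Ac and 0 in every *mbd9-1* library. With 15.9% to 23.7% of all genes called in an *mbd9-1* library, 0 of 7 is near the background, and differences between families were not tested. HSP100 genes were called 3 of 3 in every H4Ac library. Of all genes 25.97% to 37.7% were called in a WT H2A.Z library and 46.0% to 51.8% in an H4Ac library. Among the 3 ascorbate peroxidases, 1, 0 and 2 were called in WT and 3, 2 and 1 in *mbd9-1*. Reads in near-identical copies can be lost in mapping. Of 50-base stretches in the windows, 99.5% to 100% were unique at the 10 genes, but 87.6% at *HSP90.2* and 84.5% at *HSP90.3*.

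**Figure D4:**
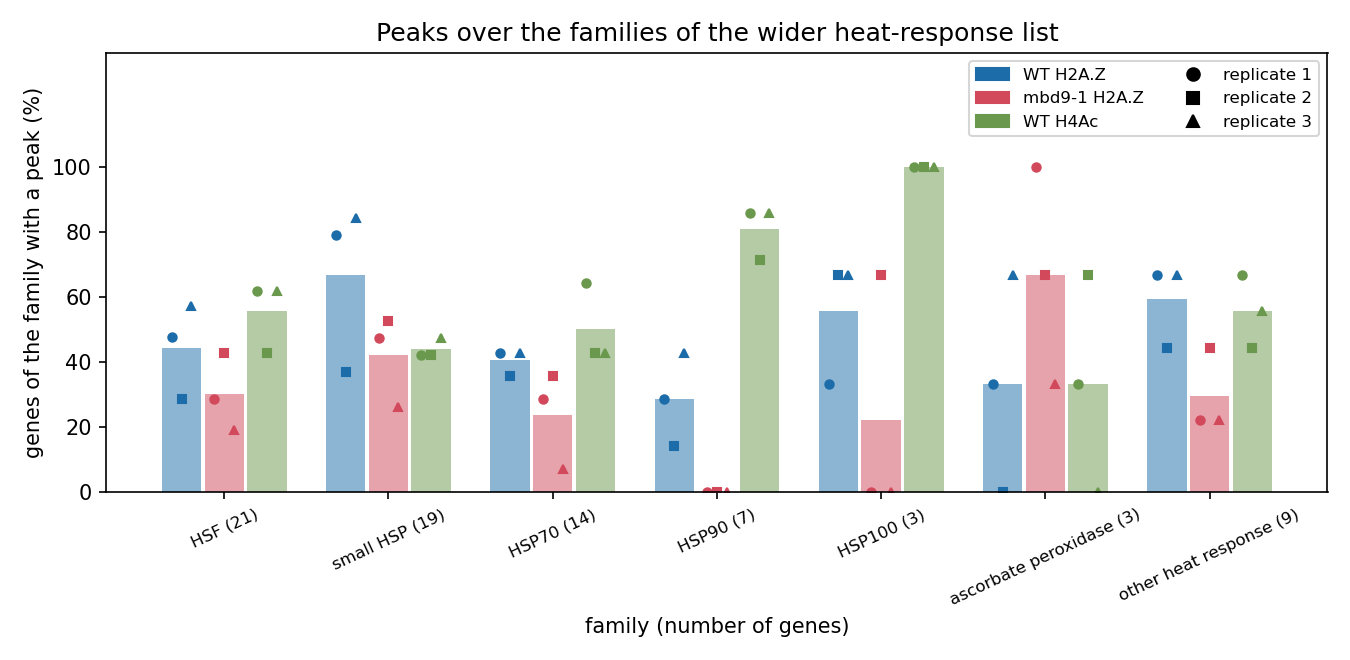
Share of genes with a peak (vertical axis, %) in 7 families of the wider heat-response list (horizontal axis, number of genes in brackets). Bars are means of 3 libraries and points are libraries, for WT H2A.Z (blue), *mbd9-1* H2A.Z (red) and WT H4Ac (green). HSP90 genes show 0 calls in the 3 *mbd9-1* libraries and 5 or 6 of 7 in each H4Ac library. Of all genes 15.9% to 23.7% were called in an *mbd9-1* library and 46.0% to 51.8% in an H4Ac library.

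Calls in all 3 WT libraries with none in *mbd9-1* were found at 4 of the 76 genes (5.31% of all genes). Beside *HSP17.6A* and *HSP90.1* these were *HSFA7B*, a heat-induced HSF, with 1570, 869 and 779 bp in WT, and *HOP3*, a co-chaperone that links HSP70 and HSP90, with 559, 461 and 598 bp. Both were at 0 bp in each mutant library. Among genes called in every WT library, those with no *mbd9-1* call were 4 of 24 in the list and 1458 of 4885 over all genes. In the wider list 7 genes were called in all 6 H2A.Z libraries (4.09% of all genes), and 11 in the 5 left without *mbd9-1* replicate 3 (6.98%). The 7 were *HSFA1A*, *HSP22*, *HSFA6A*, *HSFA6B*, *HSP17.6C*, *HSP23.5* and *MBF1C*, the last encoding a transcriptional coactivator needed for heat tolerance. The peaks counted for *HSFA1A* were centered in its neighbor AT4G17760, and no *mbd9-1* peak lay over its body. At *HSP17.6C*, a class I small heat shock protein gene, 1116, 1041 and 1016 bp were covered in WT and 1028, 1110 and 776 bp in *mbd9-1*, and the ranges overlapped.

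Relatives of the 10 genes ranged from the same pattern to no peak at all. Of the 14 HSP70 genes 5 were called in every WT library (17.8% of all genes) and 7 in none, where 46.6% of all genes were called in at least 1. *HSC70-2*, picked out after its values were seen, had 787, 583 and 769 bp in WT and 0, 471 and 0 bp in *mbd9-1*, close to *HSP70*. *HSC70-1*, a constitutive cytosolic HSP70, had no peak in any of the 9 libraries. *HSFA1B*, of the same group as *HSFA1A*, had no H2A.Z peak but H4Ac peaks of 1062, 954 and 706 bp. Over its own body *HSFA1A* was much the same, since its H2A.Z peaks were centered in AT4G17760. WT H2A.Z covered 2, 0 and 0 bp of that body and H4Ac 764, 715 and 456 bp. *HSFA1D* had H2A.Z in WT replicate 1 alone (661 bp) and H4Ac in every library, and *HSFA1E* had H2A.Z in WT replicate 1 and *mbd9-1* replicates 1 and 2. *HSP90.2* and *HSP90.3*, which are expressed without heat, had H2A.Z in WT replicate 3 only. *CLPB3*, the chloroplast relative of *HSP101*, had H4Ac in every library and no H2A.Z. *APX1*, the ascorbate peroxidase expressed without stress, was covered by H2A.Z in *mbd9-1* replicates 1 and 2 (366 and 225 bp) and in no WT library.

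Of the 19 small heat shock protein genes 7 were called in every WT library and 2 in none. Over all genes, 17.8% were called in every WT library and 46.6% in at least 1. *HSP17.6II*, the neighbor of *HSP17.6A* in class II, had 930, 577 and 1079 bp in WT and 881, 951 and 0 bp in *mbd9-1*, so that it had peaks in 2 mutant libraries where *HSP17.6A* had none. *HSP23.6*, a mitochondrial one, had 2094, 451 and 1200 bp in WT and 1143, 1280 and 0 bp in *mbd9-1*. *HSP17.4* was touched in single libraries, by 13 bp in WT replicate 3 and 381 bp in *mbd9-1* replicate 3. The heat-induced *HSP70B* was called in replicate 1 of each group only, and *HSC70-3* had 122 bp in *mbd9-1* replicate 1.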

How the data were processed

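Single-end reads were aligned by the authors to TAIR10 (Bowtie2, then filtering with Samtools), and HOMER was run on every library separately, with input as control and no scaling to a common depth. The deposited lists hold a chromosome name and peak positions in bp, read here as BED, with no score or count. For HOMER, the version and peak threshold were not given in the sources used here.

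Gene windows (gene plus 1000 bp upstream) were taken from RefSeq TAIR10.1, whose 5 chromosomes hold every peak. Covered length was computed with Python 3.11.15 and NumPy 2.4.6, and figures were drawn in matplotlib 3.10.9. Each gene was compared between 3 WT and 3 *mbd9-1* libraries by an exact two-sided permutation test with Benjamini-Hochberg adjustment over 27444 genes, tested on simulated lists. All 10 genes are named, and of the 76 genes of the wider list those called in every WT and no *mbd9-1* library, those called in all 6 H2A.Z libraries and 13 close relatives. *HSC70-2* was outside this rule and was named after its values were seen. Members, lists and tests were chosen with earlier results of these data known. The alternatives were the gene body, the upstream 1000 bp or 2000 bp upstream as window, a call at 200 bp or by the peak centre, lists without the narrowest peaks, of equal length or of peaks shared by replicates, leaving out each library, and pairing by number.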

Additional observations from a re-analysis of the deposited data

How the results depend on the processing

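The lists hold no reads or peak heights, so coverage of a window depends on depth and on the caller, neither of which the lists record, and 3 libraries against 3 cannot give a p below 0.1. Setting H2A.Z lists to equal length moved the difference in genes called per library from -4.67 to -2.67, and genes called in every WT and no *mbd9-1* library from 2 to 1. That last count was 4 with the upstream 1000 bp alone and 4 with peaks shared by another replicate. The difference in mean share of the window was -18.9 percentage points, -24.0 for the gene body and -13.8 for the upstream 1000 bp. Genes with H4Ac in every library numbered 5, but 2 in the upstream 1000 bp and 2 without the narrowest peaks of each list. The difference at *APX2* reversed without the narrowest peaks of each list (-8.09) and without WT replicate 2 (-4.74). Over the libraries left out in turn it ran from -4.74 to 7.40 percentage points.

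The 200 bp and peak centre rules change calls only and so give no value for covered length. Leaving out each H2A.Z library in turn gave differences of -5.67 to -4 genes called, -21 to -9.67 genes of the wider list and -21.2 to -16.4 percentage points, with 7 to 10 genes called in every WT library, 6 to 8 lower in every *mbd9-1* library and 2 to 4 in every WT and no *mbd9-1* library. The count of 4 came without WT replicate 2 and without *mbd9-1* replicate 2. Leaving out each H4Ac library gave 5 to 6 genes called in every one. Same-numbered WT and *mbd9-1* libraries did not deviate together (correlations 0.011, -0.111 and 0.028). Nor did same-numbered WT H2A.Z and H4Ac libraries (-0.022, -0.00057 and 0.013), though these came from the same chromatin. The correlations therefore cannot tell whether WT and *mbd9-1* libraries were paired. With a replicate block the differences were -4.67 genes, -14.7 genes of the wider list and -18.9 percentage points by construction, and the paired exact test cannot give a p below 0.25.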
